A study of Homo sapiens with 6 samples.

Results

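Receptor tyrosine kinases pass signals from growth factors outside the cell to kinases inside it. A ligand brings receptors together in the membrane, each phosphorylates its partner, and adaptor proteins that bind the phosphorylated tyrosines start the MAPK and PI3K cascades. In melanoma these receptors are known for letting tumour cells restart MAPK or PI3K signalling when BRAF or MEK is inhibited, and high AXL and EGFR with low MITF is a pattern often described in resistant cells. The 10 receptors described here were chosen by name for that role and make up 10 of the 17766 genes in the deposited gene-named table. They are the TAM receptors AXL, MERTK and TYRO3, the ERBB receptors EGFR, ERBB2 and ERBB3, the platelet-derived growth factor receptors PDGFRA and PDGFRB, the hepatocyte growth factor receptor MET and the fibroblast growth factor receptor FGFR1.

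Levels were compared between 2 established human melanoma lines, WM115 from a primary skin tumour and WM266-4 from a skin metastasis. Both grew in serum-supplemented DMEM, and the labels name no drug for either. Each line had 3 biological repeats with 1 Affymetrix array apiece. Repeat 1 used a Qiagen RNA kit and the Human Gene 1.0 ST version, and the later repeats used a GeneAll kit and the 2.1 ST version. Each group is a single cell line, so a difference between the groups is a difference between those lines, and in such bulk RNA fewer cells expressing a gene and less RNA per cell cannot be told apart.

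Levels are log2 signals as deposited, differences are WM266-4 minus WM115, and a gene "rose" or "fell" where limma gave a Benjamini-Hochberg adjusted p under 0.05 over the 12436 genes tested. Of these genes 26.9% were called, 13.6% higher and 13.3% lower in WM266-4. In the deposited table the 1.0 mean and the 2.1 mean of a gene were almost the same (median gap 0.0041 log2), so the versions had been brought together gene by gene. Each level is therefore relative to the mean of both lines on its array version. The repeat 1 deviations of the lines from their means mirror each other (correlation over genes -0.998). The SDs of a gene in the lines are thus not independent of each other. Overlap between the lines is described for these relative levels, and no change of a line between repeat 1 and the later repeats is read from them. A difference given for a repeat sets the arrays of the same number side by side. Nothing given here matches the arrays of repeats 2 and 3 beyond that number. Levels of different genes are not compared, since each gene has its own probes. Among melanocyte markers, all 8 listed genes passed the filter on dim genes, which used the mean over the 6 arrays. The WM115 means of TYR (3.17), DCT (2.79), PMEL (3.62), MLANA (3.60) and TYRP1 (3.09) lay below the filter level of 3.97. Those markers passed through WM266-4. For SOX10, a neural crest factor, WM115 had a level of 7.90 ± 0.24 and WM266-4 one of 8.09 ± 0.14 (SD, n = 3). The summed linear signal of the 8 ran from 919 to 1511 in WM115 and from 2999.8 to 4829 in WM266-4, with 6 markers called higher.

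Of the 10 receptors, 4 fell in WM266-4 (EGFR, ERBB2, PDGFRB and FGFR1) and 1 rose (ERBB3). AXL, MET, MERTK and TYRO3 were tested and not called, and PDGFRA lay below the filter on dim genes and was not tested. The called receptors made up 5 of the 9 tested, beside 26.9% of all genes. The WM266-4 means of EGFR (3.57) and PDGFRB (3.93) and the WM115 mean of MERTK (3.63) lay below the filter level of 3.97, so each of these passed the filter through the line in which it was higher. EGFR had the largest measured difference of the 10, a signal 8.93-fold lower in WM266-4 where it was dim and background was not assessed, and ERBB3 had the largest in the other direction, 3.93-fold higher. The lines did not overlap for 5 of the 9 tested receptors (EGFR, ERBB2, PDGFRB, FGFR1 and MERTK), a share near the 51.7% of all genes tested.

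**Figure D1:**
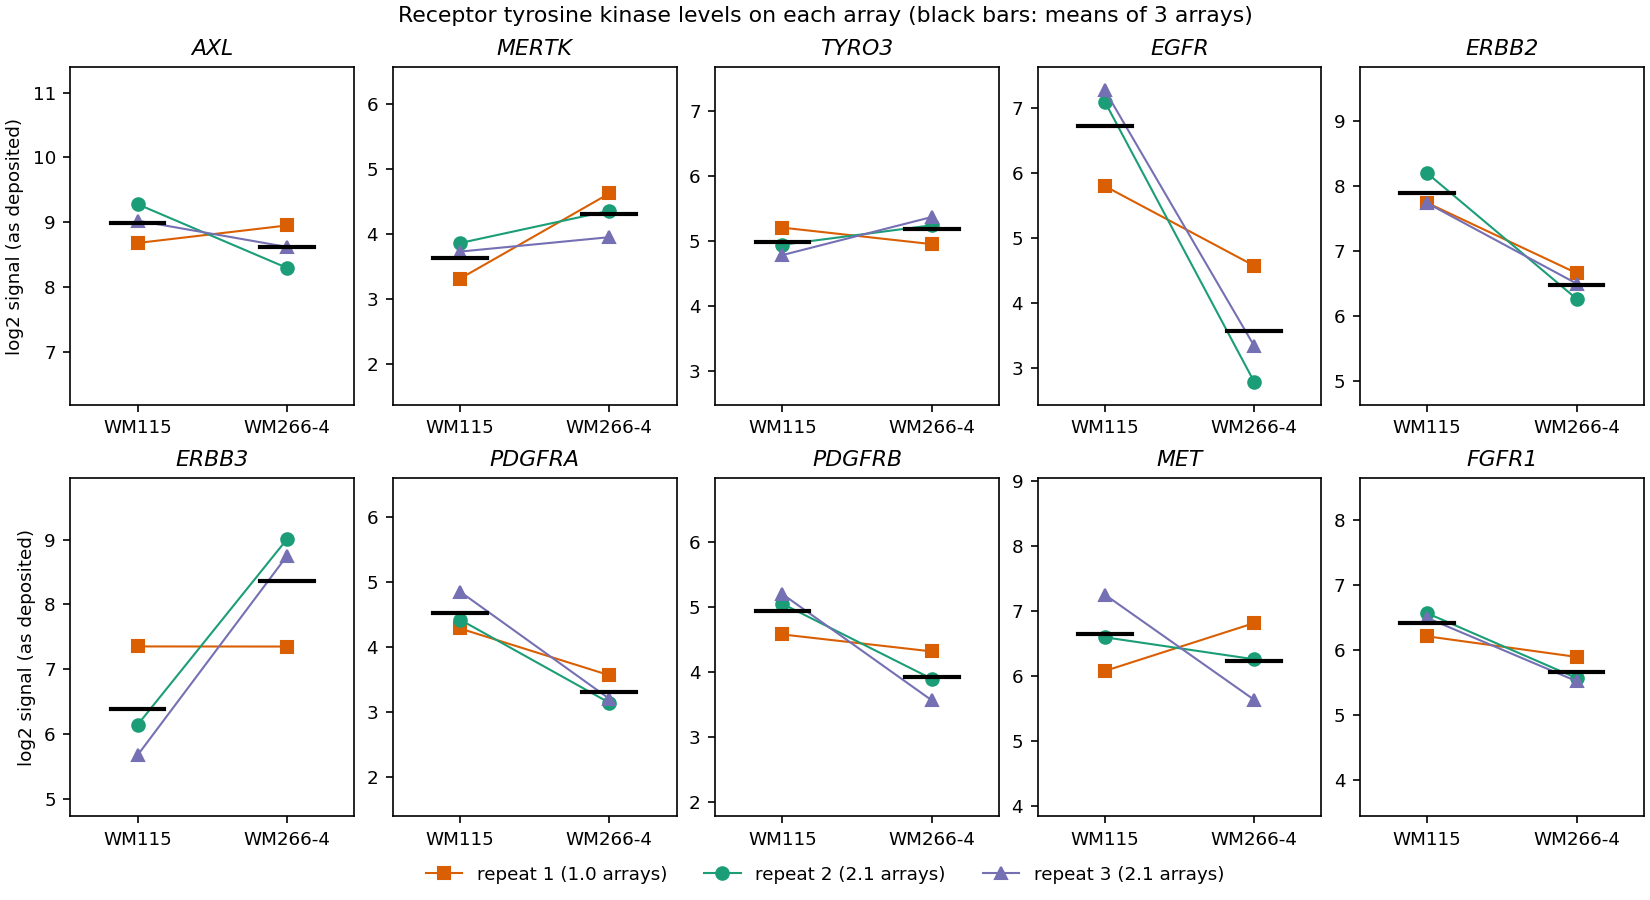
Log2 signal (vertical axis, 5.2 log2 units in every panel) of the 10 receptors in WM115 and WM266-4, with a line joining the arrays of the same repeat number and black bars at the means of 3 arrays. EGFR falls along all 3 lines, from 6.73 to 3.57 in the mean, while ERBB3 is level in repeat 1 and steep in repeats 2 and 3.

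The ERBB receptors moved in opposite directions. EGFR, which binds epidermal growth factor and its relatives, stood at 5.80, 7.10 and 7.28 in WM115 repeats 1 to 3. In WM266-4 it stood at 4.58, 2.79 and 3.34, lower in each repeat, and the groups did not overlap. The means were 6.73 ± 0.81 and 3.57 ± 0.92 (SD, n = 3), and WM266-4 minus WM115 was -3.16 log2 (SE 0.56, adjusted p = 0.011, 95% interval -4.52 to -1.80). Among the alternatives that tested EGFR, the call was lost only without WM115 replicate 2 (adjusted p = 0.0525). A filter at the 50th percentile left EGFR untested.

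ERBB2, the receptor that binds no known ligand and serves as the preferred partner of the other ERBB receptors, had the steadiest difference of the family. It stood at 7.75, 8.20 and 7.74 in WM115 and at 6.66, 6.27 and 6.50 in WM266-4, and the lines did not overlap. The difference was -1.42 log2 (SE 0.18, adjusted p = 0.0035, 95% interval -1.84 to -0.99), a 2.67-fold lower level in WM266-4. ERBB2 kept its call in all 13 distinct alternatives run, with adjusted p values from 0.00042 to 0.023.

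ERBB3 has an impaired kinase and signals by binding neuregulins and pairing with ERBB2. It stood at 7.35, 6.15 and 5.68 in WM115 and at 7.35, 9.00 and 8.75 in WM266-4. In repeat 1 the lines were level, with a difference of -0.0018 log2, so the groups overlapped, while in repeats 2 and 3 WM266-4 was higher by 2.86 and 3.07. The fit over all arrays gave 1.97 log2 (SE 0.57, adjusted p = 0.048, 95% interval 0.59 to 3.36). This call was lost without the filter on dim genes (adjusted p = 0.061) and with a robust prior (0.084). It was also lost with the repeat number as a term in place of the array version. Removing WM115 replicate 2 (0.149) or replicate 3 (0.151), or WM266-4 replicate 2 (0.163) or replicate 3 (0.151), ended it too, and on the 2.1 arrays alone the difference was 2.96 (SE 0.18, adjusted p = 1.9e-05).

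The stretch before the start of the gene is shown for EGFR and ERBB2 because both fell. The 250 bases come from RefSeq on GRCh38.p14, 5′ to 3′ on the gene's strand, at chr7:55018767-55019016 (plus strand) for EGFR and chr17:39687844-39688093 (plus strand) for ERBB2. Capitals mark letters of the AP-1 motif TGANTCA, the TEAD motif CATTCC, the MITF E-boxes CATGTG and CACGTG or the SOX motif ATTGTT on either strand.
EGFR: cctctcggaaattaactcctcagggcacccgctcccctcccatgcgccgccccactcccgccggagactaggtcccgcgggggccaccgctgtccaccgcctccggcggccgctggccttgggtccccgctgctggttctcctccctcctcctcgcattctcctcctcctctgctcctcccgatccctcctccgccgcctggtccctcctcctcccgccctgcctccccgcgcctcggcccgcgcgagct
ERBB2: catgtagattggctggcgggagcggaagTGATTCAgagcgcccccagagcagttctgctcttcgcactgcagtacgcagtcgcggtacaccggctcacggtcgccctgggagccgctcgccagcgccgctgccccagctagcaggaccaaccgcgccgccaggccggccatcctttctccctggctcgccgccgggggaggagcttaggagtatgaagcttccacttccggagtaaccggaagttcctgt
The EGFR stretch held none of these motifs, and ERBB2 held 1 AP-1 motif that began 222 bases before the start. The AP-1 letters stood in 6.57% of 35116 such stretches, the TEAD letters in 11.9%, the E-box letters in 15.2% and the SOX letters in 8.98%. The E-boxes CATGTG and CACGTG were counted together. Such matches describe the letters and not binding. Among the 8 receptors with a stretch at the gene start, AXL, EGFR, PDGFRB, MET and MERTK held none of the motifs, and PDGFRA, ERBB2 and TYRO3 held 1 AP-1 motif each. G and C made up 73.6% of the EGFR stretch and 65.6% of the ERBB2 stretch, beside a median of 58% over all stretches.

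Ligands of the ERBB receptors also moved both ways. EGF, which binds EGFR, rose by 1.14 log2 (SE 0.15, adjusted p = 0.0040), from 4.22 ± 0.12 to 5.37 ± 0.23 (SD, n = 3). HBEGF, the heparin-binding ligand of EGFR, fell by 1.51 (SE 0.24, adjusted p = 0.0076), with repeats at -0.89, -1.83 and -1.81. AREG and NRG1 were singled out after their values were seen, as ligands of EGFR and ERBB3. AREG, amphiregulin, differed by -1.15 (adjusted p = 0.0064), and NRG1, neuregulin 1, by -1.31 (adjusted p = 0.049) with repeats at -0.23, -2.40 and -1.30. The NRG1 call was lost in 7 alternatives, among them leaving out WM115 replicate 2 (adjusted p = 0.096), WM115 replicate 3 (0.107), WM266-4 replicate 2 (0.169) or WM266-4 replicate 3 (0.152). TGFA, an EGFR ligand singled out in the same way, was not called, and its repeats were -2.004, -0.299 and 0.119.

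The platelet-derived growth factor receptors were both lower in WM266-4 in each repeat. PDGFRB, which binds PDGF-BB and marks mesenchymal cells, stood at 4.58, 5.05 and 5.20 in WM115 and at 4.32, 3.90 and 3.57 in WM266-4. It fell by 1.02 log2 (SE 0.25, adjusted p = 0.027, 95% interval -1.61 to -0.43), and the lines did not overlap. The call ended with the removal of WM115 replicate 2 (adjusted p = 0.0996) or replicate 3 (0.097), or of WM266-4 replicate 2 (0.0999) or replicate 3 (0.088). It also ended with the repeat number as a term in place of the array version. The 250 bases before the PDGFRB start, at chr5:150155846-150156095 (minus strand, GRCh38.p14, RefSeq), held none of the motifs above and are shown in lower case throughout.
PDGFRB: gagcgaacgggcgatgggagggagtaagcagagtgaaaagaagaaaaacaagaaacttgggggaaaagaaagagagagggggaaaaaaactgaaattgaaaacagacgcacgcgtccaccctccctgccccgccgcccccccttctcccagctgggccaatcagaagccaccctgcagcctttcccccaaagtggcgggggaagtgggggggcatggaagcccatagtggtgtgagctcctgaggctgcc
PDGFRA, the receptor of PDGF-AA, stood at 4.29, 4.42 and 4.85 in WM115 and at 3.57, 3.14 and 3.20 in WM266-4. Its mean over the 6 arrays, 3.91, lay under the filter level of 3.97 log2. The mean difference was -1.22 log2, and a fit without the filter gave an adjusted p of 0.0091 (SE 0.19, 95% interval -1.68 to -0.75).

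PDGFC, a ligand of PDGFRA, fell by 2.09 log2 (SE 0.13, adjusted p = 0.00039), from 5.70 ± 0.19 to 3.61 ± 0.06 (SD, n = 3), with repeats at -2.18, -1.92 and -2.18. PDGFA, a PDGFRA ligand picked for mention once its values were known, was not called, with repeats at -1.03, -0.09 and -0.01. Fibroblasts and pericytes are known to carry these receptors. The summed linear signal of 7 fibroblast markers ran from 336 to 395 in WM115 and from 594 to 1334 in WM266-4, with COL1A2 called higher (4.48 log2), COL3A1 called lower (-2.01), 4 not called and DCN below the filter on dim genes. That of 5 pericyte markers ran from 81.3 to 109 and from 126 to 180.3, with RGS5 called higher (1.44 log2), ACTA2 and NOTCH3 not called and ABCC9 and KCNJ8 below the filter. The WM266-4 mean of COL3A1 (3.81) lay below the filter level of 3.97, so COL3A1 passed the filter through WM115. The part of the fibroblast and pericyte markers in the receptor differences was not tested.

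MET and FGFR1 differed in how steady they were. FGFR1, a receptor of fibroblast growth factors, stood at 6.21, 6.56 and 6.49 in WM115 and at 5.89, 5.56 and 5.52 in WM266-4, with no overlap. It fell by 0.76 log2 (SE 0.16, adjusted p = 0.017, 95% interval -1.14 to -0.39). The call ended with the removal of WM115 replicate 2 (adjusted p = 0.067) or replicate 3 (0.067), or of WM266-4 replicate 2 (0.079) or replicate 3 (0.070). MET stood at 6.08, 6.60 and 7.26 in WM115 and at 6.82, 6.26 and 5.64 in WM266-4, so the lines overlapped. Its difference of -0.41 (SE 0.39, adjusted p = 0.49, 95% interval -1.35 to 0.54) was not called, and the repeats gave 0.74, -0.34 and -1.62. FGF5, a secreted fibroblast growth factor, fell by 1.72 (SE 0.23, adjusted p = 0.0045), although a second row of the table for FGF5 gave -0.56. HGF, the ligand of MET, lay below the filter on dim genes in both lines (2.72 ± 0.15 and 2.65 ± 0.10, SD, n = 3).

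None of the TAM receptors was called. AXL, which binds GAS6, stood at 8.68, 9.28 and 9.03 in WM115 and at 8.95, 8.30 and 8.62 in WM266-4, and the lines overlapped. Its difference was -0.37 log2 (SE 0.22, adjusted p = 0.26, 95% interval -0.91 to 0.16), with 0.27 in repeat 1 and -0.98 and -0.40 in repeats 2 and 3. MERTK, a TAM receptor that also clears dying cells, stood at 3.31, 3.86 and 3.73 in WM115 and at 4.62, 4.36 and 3.95 in WM266-4, higher in WM266-4 in each repeat, with no overlap. Its difference of 0.68 (SE 0.22, 95% interval 0.14 to 1.21) missed the threshold at an adjusted p of 0.068. The difference passed it without WM266-4 replicate 3 (0.049) and without the array version term (0.042). The versions had been brought together before deposit, and a fit without that term takes no account of this, so its p values tend to be too small. The mean of MERTK over the 6 arrays lay just above the filter level. TYRO3 stood at 5.21, 4.94 and 4.79 in WM115 and at 4.95, 5.24 and 5.37 in WM266-4, and the lines overlapped. WM266-4 minus WM115 was 0.21 (SE 0.17, adjusted p = 0.39, 95% interval -0.19 to 0.61). The TAM ligand PROS1, also an anticoagulant, rose by 0.58 (SE 0.15, adjusted p = 0.031), a call lost in 5 distinct alternatives (adjusted p up to 0.12), among them leaving out any 1 array other than WM266-4 replicate 3. GAS6, picked in the same way as PDGFA, was not called, at 4.48 ± 0.04 and 4.68 ± 0.04 (SD, n = 3).

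**Figure D2:**
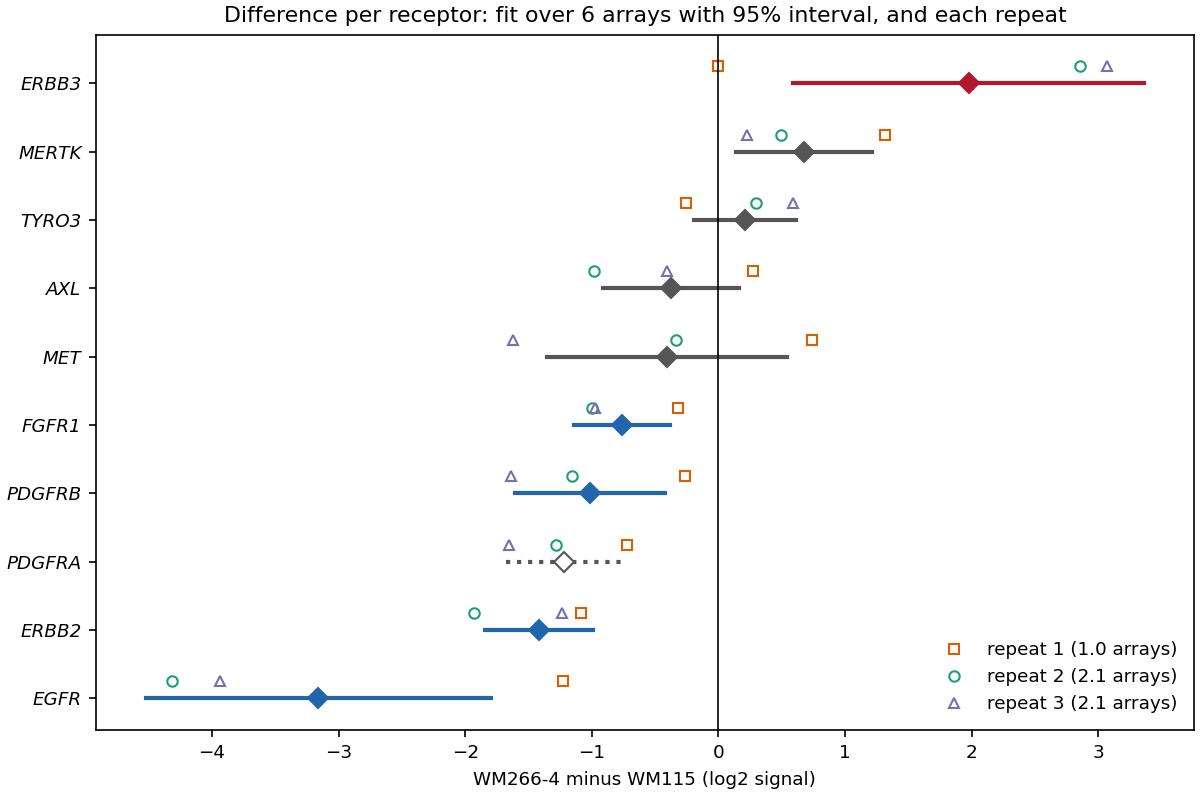
WM266-4 minus WM115 (horizontal axis, log2 signal) for each receptor, with the value fitted over 6 arrays as a diamond, its 95% interval as a bar and each repeat as an open symbol. Blue marks a call lower, red a call higher and grey no call; the open diamond and dotted interval of PDGFRA come from the fit without the filter. For 9 of the 10 receptors repeat 1 lies nearer to 0 than the mean of repeats 2 and 3.

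The difference between the lines depended on the repeat for several receptors. In 9 of the 10, all but MERTK, the absolute difference was larger in the mean of repeats 2 and 3 than in repeat 1, beside 48% of all genes tested. In 4 of the 10 (AXL, MET, TYRO3 and ERBB3) the sign in repeat 1 was opposite to that of the later mean, beside 29.2% of all genes tested. For ERBB3 the repeat 1 value was -0.0018, so its lines were level there rather than reversed. The 10 include PDGFRA, which is not among the genes tested. A limma test of the difference between array versions called EGFR, PDGFRB and ERBB3, 3 of the 9 tested, beside 5.48% of all genes. EGFR differed by -1.23 in repeat 1 and by -4.31 and -3.94 later (difference between versions -2.90, SE 0.33, adjusted p = 0.0024). For ERBB3 the difference between versions was 2.97 (SE 0.31, adjusted p = 0.0018), and for PDGFRB -1.13 (SE 0.26, adjusted p = 0.049). Without the filter on dim genes that of PDGFRB was not called (adjusted p = 0.054). The adjusted p for the other 6 tested receptors ran from 0.075 (MET) to 0.47 (ERBB2). Array version and RNA kit changed together between repeat 1 and the later repeats and cannot be told apart. Repeat 1 held 1 array per line, so the error of the test between versions comes from repeats 2 and 3 alone. Ordinary variation between repeats therefore cannot be told apart from version and kit either.

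On the 2.1 arrays alone, 31.5% of all genes were called, and 8 of the 9 tested receptors were among them. AXL fell by 0.69 log2 (SE 0.16, adjusted p = 0.013), MET fell by 0.98 (SE 0.26, adjusted p = 0.023), and EGFR fell by 4.13 (SE 0.19, adjusted p = 5e-06). ERBB2 fell by 1.59 (SE 0.18), PDGFRB fell by 1.40 (SE 0.15) and FGFR1 fell by 0.99 (SE 0.12). ERBB3 and TYRO3 rose, TYRO3 by 0.44 (SE 0.13, adjusted p = 0.035). MERTK, at 0.36 (SE 0.16, adjusted p = 0.13), was the receptor not called. Leaving out either WM115 replicate 1 or WM266-4 replicate 1 gives these same values.

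**Figure D3:**
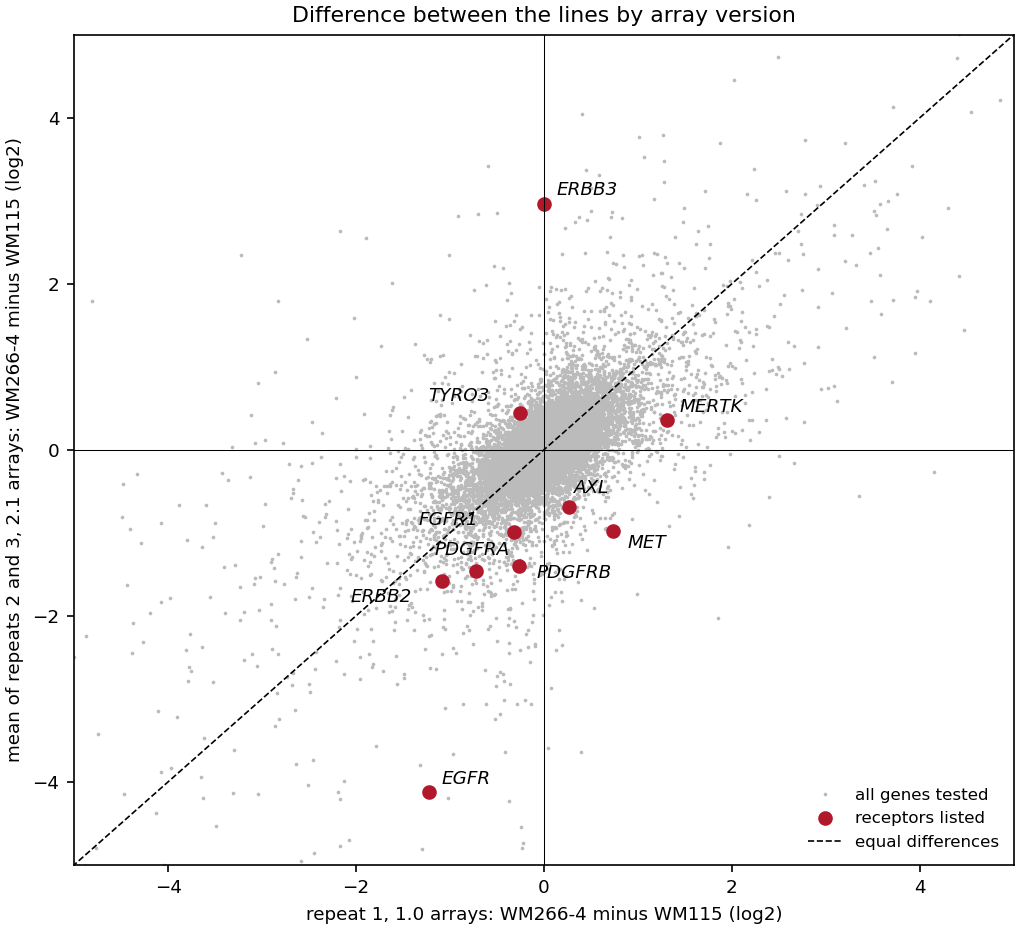
Difference between the lines in repeat 1 (horizontal axis, log2) against the mean of repeats 2 and 3 (vertical axis, log2), with grey points for the genes tested, red points for the 10 receptors and a dashed line where both are equal. ERBB3 lies on the vertical axis and EGFR well below the dashed line, and 41 genes fall outside the axes.

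Genes that act with the receptors are given by list, with the median difference beside that of all genes tested, 0.01. Of 33 ligands, 18 were tested, 2 rose (EGF and PROS1) and 5 fell (PDGFC, FGF5, HBEGF, NRG1 and AREG), so 38.9% were called beside 26.9% of all genes, with a median of -0.20. The WM266-4 means of PDGFC (3.61), FGF5 (3.73), NRG1 (3.42) and AREG (3.82) lay below the filter level of 3.97. Each of these passed the filter through WM115, and the 38.9% includes them. Of 9 shedding proteases and coreceptors, 7 were tested, 1 rose and 2 fell (42.9% called), with a median of -0.17. NRP2, a neuropilin coreceptor, rose by 0.67 (SE 0.16), NRP1, its relative, fell by 1.24 (SE 0.21, adjusted p = 0.0090), and the hyaluronan receptor CD44 fell by 0.42 (SE 0.12). The calls of NRP2 (adjusted p up to 0.107) and CD44 (up to 0.149) were lost whenever 1 array of repeat 2 or 3 was dropped.

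Of 26 adaptors and proximal signalling proteins, 24 were tested, 2 rose and 6 fell (33.3% called, beside 26.9% of all genes), with a median of -0.12. Among the SHC adaptors, which link receptors to RAS, SHC3 fell by 1.37 (SE 0.23), SHC1 by 0.85 (SE 0.11) and SHC2 by 0.80 (SE 0.12), while SHC4, named after its values were seen, was not called (0.33, SE 0.46, adjusted p = 0.64). SHC4 gave -1.21, 1.51 and 0.67 in repeats 1 to 3. SHC3 had a WM266-4 mean of 3.56, below the filter level of 3.97, and passed the filter through WM115. In the other direction GAB2, a docking protein for PI3K, rose by 1.13 (SE 0.26, adjusted p = 0.023), and PLCG1, the phospholipase recruited by many of these receptors, by 0.73 (SE 0.12, adjusted p = 0.0076). The GAB2 call was lost whenever 1 array of repeat 2 or 3 was dropped (adjusted p up to 0.091).

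Of 26 proteins that restrain receptors, 25 were tested, 3 rose and 10 fell, so 52% were called beside 26.9% of all genes, with a median of -0.41. LRIG1, which promotes the degradation of ERBB receptors, went from 6.53 ± 0.42 in WM115 to 4.09 ± 0.34 (SD, n = 3). It fell by 2.44 log2 (SE 0.26, adjusted p = 0.0024), with repeats at -3.23, -1.94 and -2.15. SPRY3 fell by 1.91 (SE 0.29), and PTPRK, a receptor phosphatase, by 1.53 (SE 0.11, adjusted p = 0.00063). The WM266-4 mean of SPRY3 (3.96) lay just below the filter level of 3.97, so SPRY3 passed the filter through WM115. SPRY1 rose by 1.89 (SE 0.23, adjusted p = 0.0033) and SPRY2 by 0.64 (SE 0.13), so the Sprouty proteins, feedback inhibitors of RAS signalling, moved in both directions. CBLB, a ubiquitin ligase that sends receptors to lysosomes, rose by 1.21 (SE 0.21, adjusted p = 0.0095). The SPRY2 call was lost whenever 1 array of repeat 2 or 3 was dropped (adjusted p up to 0.076).

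Of 30 other receptor tyrosine kinases, only 13 lay above the filter on dim genes, where 3 rose and 4 fell (53.8% called, beside 26.9% of all genes), with a median of -0.10. ROR1, a receptor for WNT5A, rose by 2.75 log2 (SE 0.15, adjusted p = 0.00027), from 4.38 ± 0.18 to 7.13 ± 0.20 (SD, n = 3). The insulin receptor INSR rose by 1.56 (SE 0.10) and its relative IGF1R by 0.54 (SE 0.15). The endothelial growth factor receptor KDR fell by 1.91 (SE 0.26), the collagen receptor DDR1 by 1.51 (SE 0.11) and ALK by 1.39 (SE 0.18). The IGF1R call was lost in 8 distinct alternatives, among them leaving out any 1 array (adjusted p up to 0.133).

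**Figure D4:**
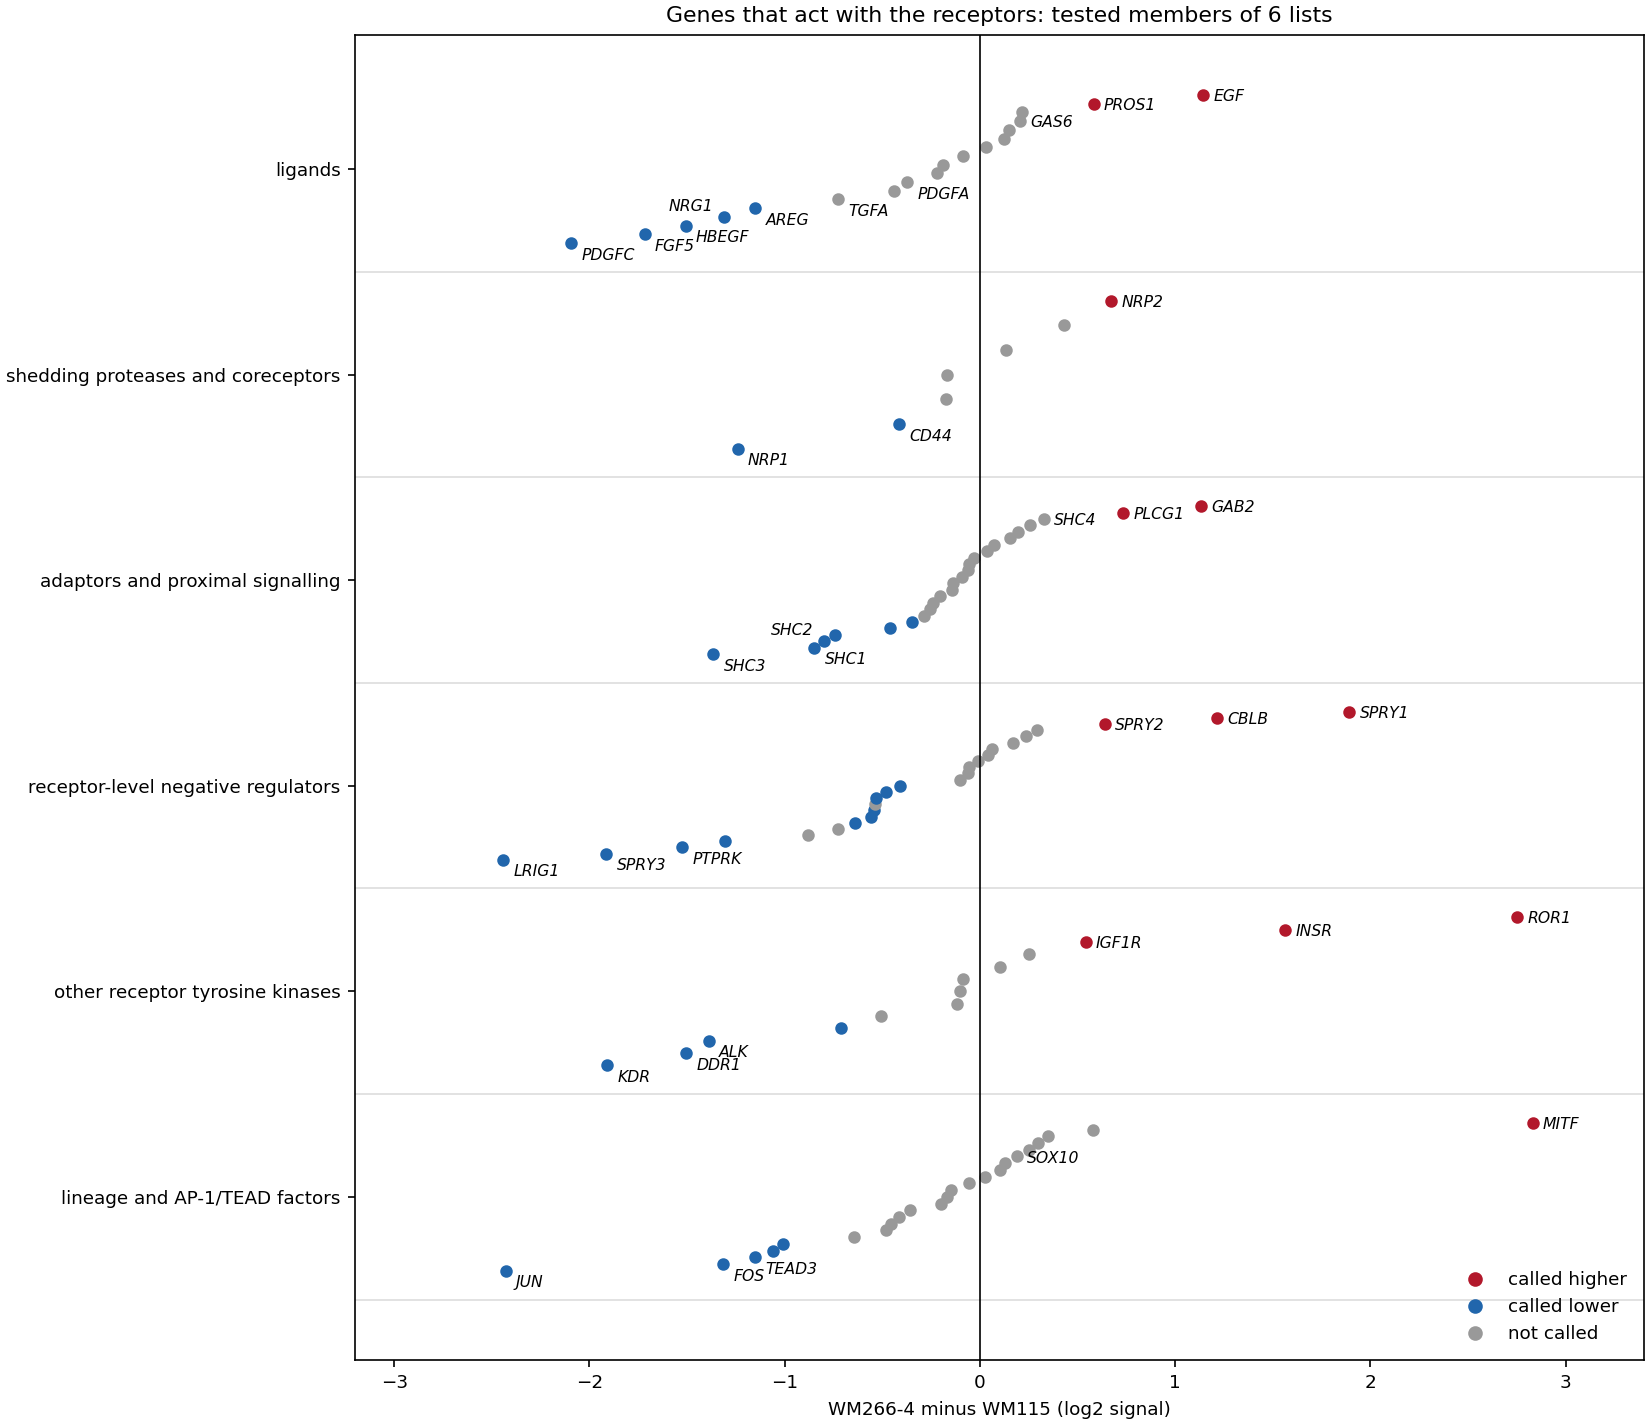
WM266-4 minus WM115 (horizontal axis, log2 signal) for the tested members of 6 gene lists, ordered by difference within each list, with calls in red and blue and named genes labelled. ROR1 and MITF lie farthest to the right, and LRIG1 and JUN farthest to the left.

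Of 23 transcription factors of the melanocyte lineage and of the AP-1 and TEAD families, all were tested, 1 rose and 5 fell, with a median of -0.17. The share called, 26.1%, was near the 26.9% of all genes. MITF, the master factor of melanocytes, rose by 2.83 log2 (SE 0.13, adjusted p = 0.00014), from 4.55 ± 0.13 to 7.38 ± 0.16 (SD, n = 3). SOX10 was not called (0.19, SE 0.16, adjusted p = 0.42). The AP-1 subunits JUN and FOS fell by 2.43 (SE 0.14) and 1.32 (SE 0.38), and TEAD3 fell by 1.15 (SE 0.20). The FOS call was lost without WM115 replicate 2, WM266-4 replicate 2 or WM266-4 replicate 3, and in 2 further alternatives (adjusted p up to 0.163). Among markers of other cell types, 5 of 6 keratinocyte markers (all but DSP) and 6 of 7 leukocyte markers (all but CD68) lay below the filter on dim genes. The keratinocyte sum ran from 83.9 to 126 in WM115 and from 59.5 to 75.6 in WM266-4. DSP (-1.48 log2, called) and TP63 (-1.09, not tested) were lower in WM266-4. The WM266-4 mean of DSP (3.80) lay below the filter level of 3.97, so DSP passed the filter through WM115. The keratins were nearly level, at -0.03 (KRT5), -0.02 (KRT14), 0.04 (KRT1) and -0.10 (KRT10). The leukocyte sum ran from 615 to 1241 and from 254 to 498, and that of 4 endothelial markers, with KDR called lower, from 116 to 169.6 and from 63.5 to 76.1. The part of these markers in the receptor differences was likewise not tested.

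The genes most like EGFR and ERBB3 were found by the root mean square distance between profiles over the 6 arrays, each gene first centred on its mean. Nearest to EGFR were PARM1, a mucin-like membrane protein (distance 0.0955 log2, difference -3.14), TNIP3, an inhibitor of NF-kB signalling (0.197, -2.97), and NETO1, a partner of glutamate receptors (0.278, -3.37). The WM266-4 means of TNIP3 (2.73) and NETO1 (3.32) lay below the filter level of 3.97, so both passed the filter through WM115. Nearest to ERBB3 were the secreted semaphorin SEMA3B (0.172, 1.86), the membrane-type metalloproteinase MMP15 (0.219, 1.73) and the membrane protein ANO4 (0.230, 2.15). MMP15 was not called (adjusted p = 0.094), and its lines overlapped. Closeness over 6 arrays of 2 lines reflects mainly the difference between the lines and its size in each repeat, and these genes were picked for it, so their differences are descriptions.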

How the data were processed

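RNA of 3 arrays each of WM115 and WM266-4 was compared, grouped by the labelled cell line. The authors deposited log2 signals per gene, and per the submitters' processing notes these came from Affymetrix Expression Console and RMA. The sources used here do not give how the array versions were put on one scale. Per the labels' protocols, RNA kit and array version changed after repeat 1. Value tables per array version are not used here, because nothing given here names the genes of their probe sets. Of 18887 rows, the brightest per symbol was kept (1121 repeats dropped), leaving 17766 genes. A filter at the 30th percentile of the mean level (3.97 log2) kept 12436 for testing. From the deposited log2 table, limma 3.58.1 (R 4.3.3, lmFit and eBayes) fitted each gene with line and array version as terms (3 residual and 3.38 prior degrees of freedom) and adjusted by Benjamini-Hochberg. A second limma fit held the product of line and version. The fits were tested on simulated data. Levels carry the SD of 3 arrays and differences the SE of the fit. Replicates of a line were not identical, with SDs of their differences over genes of 0.22 to 0.34 log2. The number of arrays limits the precision.

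Named genes were the 10 receptors, up to 3 called genes per list and direction, MITF and SOX10, and the 3 nearest profiles to the receptor with the largest rise and fall. NRG1, AREG, GAS6, TGFA, HGF, PDGFA and SHC4 were added after values were seen. The receptors, lists and tests were chosen with earlier results of these data known. Alternatives changed the version term, filter, row choice, normalization, prior and arrays, with a replicate block among them.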

Additional observations from a re-analysis of the deposited data

Results flagged for a closer look

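In a limma test of the line difference between array versions, 15 named genes passed an adjusted p of 0.05, beside 5.48% of all genes tested. The values are the mean difference (WM266-4 minus WM115) of repeats 2 and 3 minus that of repeat 1. Repeat 1 held 1 array per line, so the error comes from repeats 2 and 3 alone. Among the receptors the value was -2.90 for EGFR, -1.13 for PDGFRB and 2.97 for ERBB3. Among ligands it was 1.91 for TGFA and 0.98 for PDGFA, whose lines differed mainly in repeat 1. Among adaptors and inhibitors it was 1.20 for GAB2, -1.10 for SHC3, 2.30 for SHC4 and -1.42 for SPRY3. The genes picked for profiles like ERBB3 had 2.45 (SEMA3B), 3.36 (MMP15) and 2.13 (ANO4), and those picked for profiles like EGFR had -3.17 (PARM1), -2.48 (TNIP3) and -1.86 (NETO1). These last 6 were chosen for following a receptor array by array, so their values repeat its pattern.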

How the results depend on the processing

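Over the alternatives, 13 distinct ones since leaving out either array of repeat 1 is the fit on the 2.1 arrays alone, 1 named gene changed direction, SHC4, which was not called, at -0.0617 on leaving out WM115 replicate 2, and over all arrays left out in turn it ran up to 1.09. The 10 receptors kept their side of the threshold in 91 of 114 distinct refits, lost a call in 17 and gained one in 6. Of 534 distinct refits of the other named genes, 473 kept direction and side, 58 lost a call and 2 gained one. The count of receptors called higher, 1 in the fit reported, was 2 without the array version term and on the 2.1 arrays alone, and 0 by limma with the replicate block, with a robust prior and without the filter on dim genes, where 2 had an unadjusted p under 0.05 in each. It ran from 0 to 2 on leaving out 1 array, and where it was 0 by limma, 1 had an unadjusted p under 0.05. The fit without the array version term takes no account of the adjustment before deposit, so its p values tend to be too small. The count called lower, 4, was 2 with a filter at the 50th percentile, which tests fewer genes, and ran from 1 to 6 on leaving out 1 array. Genes called ran from 1400 to 3914 and genes that differed between versions from 665 to 1264 on leaving out 1 array, beside 3343 and 681. Whether the numbers of the repeats pair the samples was not settled. Same-numbered arrays had correlations of deviations of -0.998, -0.262 and -0.396. Differently numbered 2.1 arrays had -0.471 and -0.506. The adjustment before deposit set the first value and pushed those among repeats 2 and 3 toward negative values on average. These correlations therefore cannot decide the pairing. The replicate block gave 2398 genes called and lost PDGFRB (adjusted p = 0.062) and ERBB3 (0.092) among the receptors. The cause of these changes was not tested. Signal over background was not assessed.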
